A study of Mus musculus with 96 samples.

Results

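Ribosome biogenesis genes encode the nucleolar machinery that makes ribosomes. The set described here held 35 of the 22497 genes measured, chosen by symbol as known components of that machinery, and all 35 had values in all 96 libraries. RNA polymerase I transcribes the long precursor of ribosomal RNA. Box C/D and box H/ACA small nucleolar ribonucleoproteins (snoRNPs) methylate and pseudouridylate it, and assembly factors fold, cleave and package it into the small and the large subunit. Such genes are often raised together by MYC and mTOR signalling in growing cells, and in skin they are known for high expression in proliferating basal keratinocytes.

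The libraries were made from polyadenylated RNA of epidermal cells isolated from the back skin of female C57BL/6 mice aged 8 weeks, held in constant darkness for 156 to 176 h. Each of 4 genotypes was sampled at 6 circadian times (CT0 to CT20, 4 h apart, CT0 being the former time of lights on), with 4 mice at each time and so 24 libraries per genotype. WT mice carried Syt10-Cre tg/wt and K14Cre wt/tg on Arntl wt/wt, with the clock activator BMAL1, the product of Arntl, intact in all tissues. The other 3 genotypes were Arntl stopFL/stopFL, an allele stopped by a floxed cassette, so that Cre restores the gene only where it is active. RERE mice carried K14Cre tg/wt and Syt10-Cre tg/wt (epidermis and brain), EpiRE mice K14Cre tg/wt and Syt10-Cre wt/wt (epidermis), and BRE mice K14Cre wt/wt and Syt10-Cre tg/wt (brain). K14Cre acts in all K14-expressing epithelia and Syt10-Cre in several neuronal sites besides the suprachiasmatic clock, which limits each as a model of 1 tissue. RERE, EpiRE and BRE all differ from WT in the Arntl allele as well as in the tissues with a clock. EpiRE and BRE each lack 1 of the drivers that WT carries. Tissues that no driver reached stayed without the gene, so BRE lacks the clock in more than the epidermis. A count over the whole Arntl gene does not tell a stopped from a restored transcript and was not used as a check.

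Levels are log2 RPKM, reads per kilobase of exon scaled by library size. Comparing 1 gene with another on this scale rests on the exon length by which each was divided. Depth was 11.1 to 19.9 M reads per library, with genotype means of 14.8 to 15.4 M. Keratinocyte markers were abundant in all libraries (summed level of 8 basal genes 11400 to 18100 RPKM), and the summed markers of fibroblasts stayed at or below 9.55, of endothelium at or below 0.309 and of muscle at or below 4.32 RPKM. Other cells were present. Summed markers were 232 to 656 RPKM for hair follicle and 121 to 326 for sebaceous gland. They were 53.9 to 273 for Langerhans and myeloid cells, 19.9 to 135 for T cells and at or below 19.1 for red blood cells. None of the marker genes in the files was at 0 reads in all 96 libraries. Library EpiRE CT0 replicate 1 stood apart, with a median absolute deviation from the other libraries of its group of 0.292 against a limit of 0.241, and results with EpiRE were recomputed without it. The times of EpiRE and BRE libraries rest on the column names of 1 set of deposited tables. A second set holds coded columns in another order for these genotypes, and those were not used.

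To show what the start sites of these genes have in common, the 250 bases before the annotated start were searched on both strands in the 30 members with a RefSeq promoter (GRCm38.p6, 34 promoters). Bop1, Fbl, Npm1, Rrp12 and Rrs1 had no entry. The E-box CACGTG, which both MYC and the CLOCK-BMAL1 pair can bind, was present in 1 of the 34 promoters, that of Nop2, against 6.02% of all 32851 promoters of the same length. The ETS-type motif CCGGAAG was in 6 of 34, against 6.91% of all promoters. CCAAT was in 7 of 34 against 33.8%, TATAAA in 2 of 34 against 12.4%, and the D-box TTATGTAA in 0 of 34 against 0.819%. Matches of different motifs may overlap. A match describes letters only and is not a binding site.

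The sites below carry the ETS-type motif in capitals with 10 bases on each side, read in the direction of the motif, so that the flanks can be compared. Ltv1 holds the motif in both directions.
Gar1, chr3:129831423-129831449: cgcgacgtttCCGGAAGtgtggcggcg
Heatr1, chr13:12395349-12395375: tagtgagaagCCGGAAGttcctatgag
Ltv1, chr10:13193219-13193245: gccccacctcCCGGAAGtccccgggaa
Ltv1, chr10:13193176-13193202: taggctgtagCCGGAAGttgcgtgagc
Nhp2, chr11:51619740-51619766: acttgaaaacCCGGAAGtgatgtcgga
Nolc1, chr19:46075823-46075849: gcgtgtgggaCCGGAAGcaacttctag
Nop2, chr6:125131835-125131861: ggtgccgcggCCGGAAGaggcggggcg

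The motif lay 14 to 98 bases upstream of the start, and the flanks differed from gene to gene. The next windows give the whole 250 bases, 5′ to 3′ along the gene, for 4 genes on which results below turn. They are Nop2, the member with an E-box, Nolc1, which was lower in BRE, and Polr1a and Nat10, which were rhythmic in WT. Capitals mark CACGTG and CCGGAAG in Nop2, CCGGAAG in Nolc1 and CCAAT in Polr1a, and Nat10 held none of the 3.
Nop2, chr6:125131633-125131882, + strand: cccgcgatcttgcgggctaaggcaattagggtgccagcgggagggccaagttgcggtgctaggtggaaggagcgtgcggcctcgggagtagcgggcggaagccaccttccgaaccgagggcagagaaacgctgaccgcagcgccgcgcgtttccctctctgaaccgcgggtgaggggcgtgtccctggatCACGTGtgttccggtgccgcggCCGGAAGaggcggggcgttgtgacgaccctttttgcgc
Nolc1, chr19:46075597-46075846, + strand: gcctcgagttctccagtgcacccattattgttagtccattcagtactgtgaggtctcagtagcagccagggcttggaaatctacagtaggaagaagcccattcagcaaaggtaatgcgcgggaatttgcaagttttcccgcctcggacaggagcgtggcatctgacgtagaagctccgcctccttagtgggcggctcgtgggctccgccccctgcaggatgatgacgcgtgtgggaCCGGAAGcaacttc
Polr1a, chr6:71908803-71909052, + strand: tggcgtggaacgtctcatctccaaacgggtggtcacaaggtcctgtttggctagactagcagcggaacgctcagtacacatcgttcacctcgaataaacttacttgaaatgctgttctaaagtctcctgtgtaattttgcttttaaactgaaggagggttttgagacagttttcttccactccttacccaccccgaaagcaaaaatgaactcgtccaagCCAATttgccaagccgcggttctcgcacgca
Nat10, chr2:103761271-103761520, - strand: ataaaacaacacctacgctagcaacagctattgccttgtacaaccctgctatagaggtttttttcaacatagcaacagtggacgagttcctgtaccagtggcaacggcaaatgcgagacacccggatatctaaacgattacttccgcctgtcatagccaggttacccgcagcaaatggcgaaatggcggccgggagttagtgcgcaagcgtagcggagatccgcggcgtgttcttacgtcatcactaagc

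The E-box of Nop2 began 60 bases upstream of the start and its ETS-type motif 38 bases upstream. Median GC content of the members' windows was 57.4% against 52.4% over all promoters. A further shared feature was the hosting of small nucleolar RNAs. In GENCODE M21 (GRCm38, the same assembly as the mm10 named by the labels) 7 of 35 members (20%) held annotated snoRNA genes on their own strand, 21 snoRNA genes in all, against 1.18% of 21951 protein-coding genes. The hosts were Nop56 (5 snoRNA genes), Nop58 (4), Ncl, Wdr43 and Gnl3 (3 each), Tsr1 (2) and Dkc1 (1). Exons of 17 members overlapped those of another gene, mostly over a few percent of their bases. The overlap was 32.3% of exon bases for Tsr1 (with Srr), 20.9% for Noc2l (with Samd11) and 9.37% for Bysl (with Ccnd3). The labels name a stranded library kit, but no source at hand states the strand setting of the counting, so values of these genes are uncertain to that extent.

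All 35 members passed the filter of a mean of at least 1 RPKM in all comparisons. The highest in RPKM was Npm1 (ENSMUSG00000057113; chromosome 11, 33152287 to 33163206), nucleophosmin, a nucleolar histone and ribosome chaperone. It has near-identical processed copies in the genome, and how reads shared with them were counted is not stated, so its level is uncertain to that extent. Its level was 7.61 as the mean of 96 libraries, from 7.28 to 8.01. Ncl (nucleolin, an RNA-binding protein of the nucleolus) followed at 6.19, and Nhp2, a core protein of box H/ACA snoRNPs, at 5.84. In mean reads Ncl stood above Npm1 (9181.3 against 5516.3). Its exon length was 8257 bases against 1863 for Npm1, so their order in RPKM rests on those lengths. The lowest were Wdr12 at 2.23, a subunit of the PeBoW complex of large subunit assembly, Polr1a at 2.51, the largest subunit of RNA polymerase I, and Rrp1b at 2.55, a nucleolar factor of the large subunit. The other 29 members lay between 2.78 and 5.69.

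The first question was whether epidermis without its own clock, in BRE, carries the same levels as WT. Of the 35 members, 18 were lower in BRE and 0 were higher (limma, adjusted p under 0.05), against 24.4% of 11016 genes called lower over the whole table. The median difference of the members was -0.0953 on the log2 scale (-6.39%), beside -0.0455 over all genes tested, and 32 of 35 point estimates were below 0. The count was 9 to 12 with any 1 replicate number left out of both genotypes (9 without replicate 1, 10 without 2 or 4, 12 without 3). Box C/D snoRNP genes fell in 4 of 4 cases, while 5 of 10 large subunit factors, 4 of 11 small subunit factors, 2 of 4 box H/ACA genes and 2 of the 3 genes Ncl, Npm1 and Nolc1 passed. The differences were small, with called sizes of 0.0832 to 0.237.

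Fbl (ENSMUSG00000046865; chromosome 7, 28169710 to 28179269), fibrillarin, the methyltransferase of box C/D snoRNPs, had the largest difference. Its level ranged from 4.90 to 5.65 with a median of 5.29 in WT, and from 4.75 to 5.28 with a median of 5.07 in BRE (24 libraries each). All 24 BRE libraries lay below the WT median and 4 of 24 lay below the lowest WT library, so the groups overlapped but were displaced. Fbl fell by 0.24 ± 0.04 (SE; -15.2%, adjusted p = 3.16e-05), and its mean was lower in BRE at 6 of 6 times. The 3 other box C/D genes moved the same way. Rrp9 (ENSMUSG00000041506; chromosome 9, 106475963 to 106485424), a protein of the U3 snoRNP, stood at 3.40 to 4.28 (median 3.86) in WT and 3.14 to 4.08 (median 3.70) in BRE, with 21 of 24 BRE libraries below the WT median. It fell by 0.18 ± 0.06 (adjusted p = 0.0105). Nop56, a core scaffold of the same particles, fell by 0.17 ± 0.05 (adjusted p = 0.0096), and its partner Nop58 fell by 0.16 ± 0.05 (adjusted p = 0.00649).

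Among box H/ACA genes, Nop10 (ENSMUSG00000027133; chromosome 2, 112261926 to 112263269), the smallest core protein, ranged from 4.66 to 5.61 (median 5.18) in WT and from 4.64 to 5.32 (median 4.95) in BRE. The ranges overlapped almost fully, and 20 of 24 BRE libraries were below the WT median. It fell by 0.19 ± 0.06 (adjusted p = 0.00647), a call lost without replicate 3 of each group (adjusted p = 0.0787). Dkc1, dyskerin, the pseudouridine synthase, fell by 0.13 ± 0.05 (adjusted p = 0.0253). Gar1 at -0.10 (95% interval -0.20 to 0.01) and Nhp2 at -0.01 (-0.10 to 0.08) did not pass.

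Of the abundant nucleolar proteins, Nolc1 (ENSMUSG00000015176; chromosome 19, 46075863 to 46085530), a chaperone that shuttles snoRNPs, ranged from 4.23 to 4.87 (median 4.65) in WT and from 4.06 to 4.74 (median 4.45) in BRE. It was below the WT median in 22 of 24 BRE libraries and fell by 0.18 ± 0.05 (adjusted p = 0.00514). Ncl lay between 6.07 and 6.51 in WT and between 5.85 and 6.40 in BRE, with 8 of 24 BRE libraries below the lowest WT library, the most of any member. It fell by 0.14 ± 0.03 (adjusted p = 0.000427). Npm1 stood apart from both, at a difference of 0.02 (95% interval -0.05 to 0.08). The difference between Npm1 and Ncl was not tested.

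For small subunit assembly, Noc4l (ENSMUSG00000033294; chromosome 5, 110648418 to 110653417), a nucleolar factor of small subunit precursors, had the clearest separation. Its level was 3.40 to 4.00 (median 3.68) in WT and 3.21 to 3.71 (median 3.49) in BRE. In BRE 23 of 24 libraries lay below the WT median and 6 below the lowest WT library. Noc4l fell by 0.19 ± 0.04 (-12.6%, adjusted p = 0.000324). Nat10, the RNA cytidine acetyltransferase that modifies 18S rRNA, fell by 0.15 ± 0.05 (adjusted p = 0.0103). Wdr43, a UTP-A component of the processome, fell by 0.15 ± 0.04 (adjusted p = 0.00816), and Nop14 fell by 0.09 ± 0.04 (adjusted p = 0.0438). The 7 that did not pass were Bysl, Heatr1, Ltv1, Nob1, Rrp12, Tsr1 and Wdr75, with differences of -0.08 to 0.01.

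In large subunit assembly Nop2, an rRNA methyltransferase, fell by 0.13 ± 0.04 (adjusted p = 0.0178). Pes1, a PeBoW subunit, Nop16, Rrp1b and Noc2l also fell, by 0.08 to 0.14, with adjusted p of 0.0345 to 0.0489 that sit close to the threshold. The PeBoW partners of Pes1 did not pass, Bop1 at -0.07 (95% interval -0.15 to 0.01) and Wdr12 at -0.02 (-0.14 to 0.09). Ebna1bp2 (-0.10), Rrs1 (-0.09) and Gnl3 (-0.08) did not pass either. Of RNA polymerase I, the second-largest subunit gene Polr1b fell by 0.12 ± 0.05 (adjusted p = 0.0444), and Polr1a was at 0.03 (95% interval -0.06 to 0.12). Ddx21, an RNA helicase of Pol I transcription and processing, was at -0.03 (-0.12 to 0.06).

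**Figure D1:**
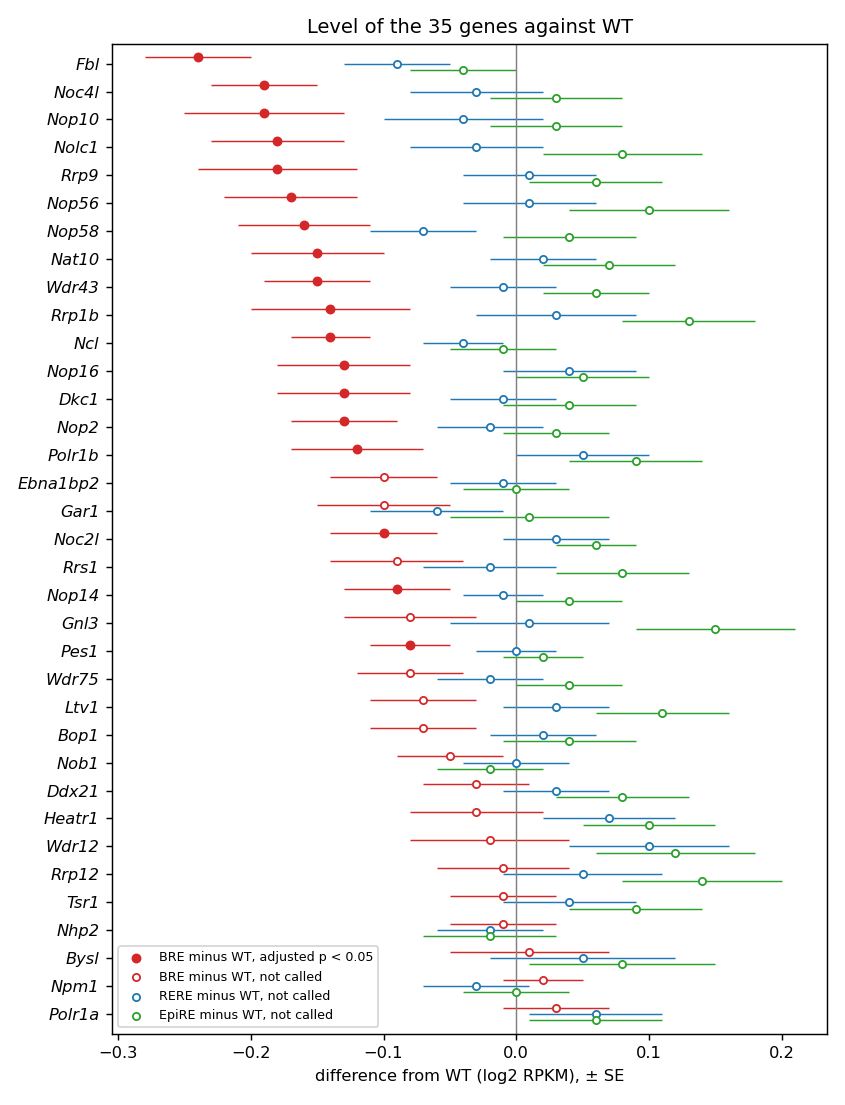
Difference of each of the 35 genes from WT in log2 RPKM (horizontal axis, ± SE) for BRE, RERE and EpiRE, 24 libraries per genotype, with filled points for adjusted p under 0.05. The 18 filled points are all of BRE and all left of 0, between -0.24 and -0.08.

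**Figure D2:**
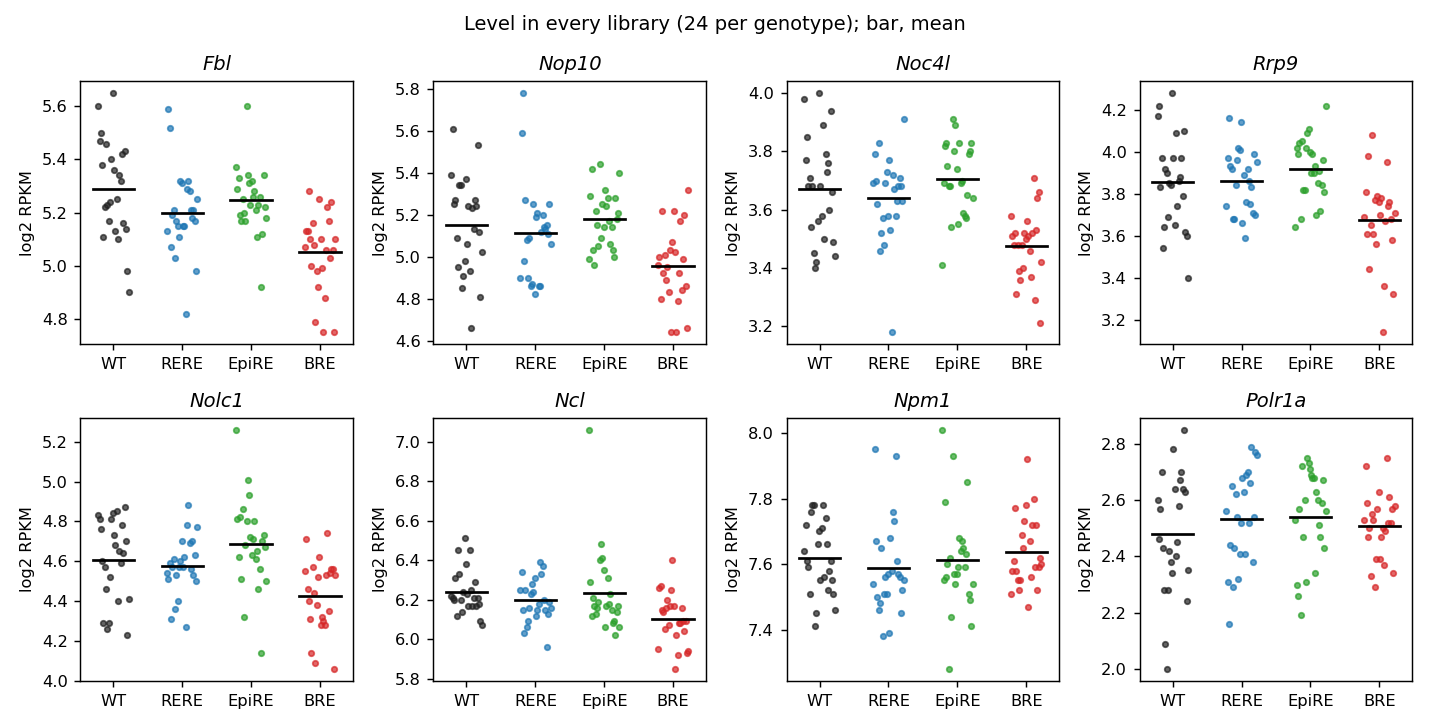
Level of 8 members in every library (vertical axis, log2 RPKM), 24 points per genotype ordered by time, with a bar at the mean. BRE has the lowest mean for Fbl, Nop10, Noc4l, Rrp9, Nolc1 and Ncl, but not for Npm1 and Polr1a, and the single EpiRE point of Ncl at 7.06 is the library that stood apart.

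The median difference of the members between BRE and WT group means was -0.16 at CT12 (33 of 35 lower) and -0.129 at CT16 (33 lower), and -0.0264 at CT8 (21 lower) and -0.0512 at CT4 (25 lower). It was -0.0938 at CT0 (34 lower) and -0.0606 at CT20 (26 lower). No test compared these times, and the same values over all genes were not computed by time.

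Other measures moved between BRE and WT together with these genes. All 7 suprabasal keratinocyte markers (Krt1, Krt10, Krt77, Krtdap, Sbsn, Dsc1, Dsg1a) were higher in BRE, by a median of 0.352, and their summed level was 15200 to 25800 RPKM (median 22000) in BRE against 11700 to 20400 (median 17400) in WT. Of the granular and cornified layer, 4 of 7 were higher (median 0.438). Of 8 basal markers 2 were lower, Krt15 and Itga6. Of 14 S phase genes 4 were lower and 1 was higher. Over all genes 24.4% were called lower. Of 15 G2/M genes 0 were called in either direction (median -0.0488). The part of these markers in the lower levels of the members was not tested. In bulk RNA fewer cells of a type and less RNA per cell cannot be told apart. Of hair follicle markers 3 of 4 and of melanocyte markers 2 of 2 were lower, and of 5 sebaceous gland markers 1 was higher. Of 5 T cell markers Cd3e (-0.36) and Cd3g (-0.33) were lower and Thy1 (0.64) was higher. Of 5 Langerhans and myeloid markers Cd74 (-0.34) was lower, and the median of the 5 was -0.338. When libraries were scaled instead to the median ratio over genes, 10 members were lower and 0 higher, with a median of -0.061, and all genes called split 1888 higher to 1815 lower in place of 1382 to 2684. The 5 members described in full (Fbl, Nop10, Noc4l, Rrp9 and Nolc1) passed under that scaling too, with adjusted p of 7.29e-05 to 0.0231.

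RERE, which has the clock in epidermis and brain, was compared with BRE to ask what the epidermal clock adds, and 18 members were higher in RERE and 0 lower, against 17.4% of 10991 genes called higher. The median was 0.0964, beside 0.0359 over all genes. The count was 13, 8, 11 and 10 without replicates 1 to 4 in turn. By time, the median of BRE minus RERE was 0.00805 at CT0, with 16 members lower in BRE. At the other times it was -0.0662 to -0.155, with 28 to 33 members lower in BRE. No test compared these times, and the same values over all genes were not computed by time. Rrp9 was higher by 0.19 ± 0.05 (adjusted p = 0.00225), with RERE libraries at 3.59 to 4.16 and 20 of 24 above the BRE median. Nat10 stood at 2.93 to 3.65 (median 3.40) in RERE and 2.96 to 3.55 (median 3.20) in BRE, a difference of 0.17 ± 0.04 (adjusted p = 0.000912). Nop56 was higher by 0.17 ± 0.05, Polr1b by 0.17 ± 0.05 and Nop16, a large subunit factor, by 0.17 ± 0.04 (adjusted p of 0.00611, 0.00583 and 0.0012). The ranges of all 5 genes overlapped between the genotypes. The calls of Nop56 (without replicate 1 or 2) and Polr1b (without replicate 4) were lost, at adjusted p up to 0.0708. Under median-ratio scaling 11 members were called, all higher, and all genes split 1268 higher to 1498 lower in place of 1910 to 1110. Suprabasal markers were lower in RERE than in BRE in 6 of 7 cases (median -0.241), granular and cornified markers in 3 of 7 with 2 higher, and 2 of 8 basal markers were higher. Of 15 G2/M genes 0 were called in either direction (median -0.0964). Of 5 T cell markers 1 was lower, of 13 S phase genes 1 was lower, and the 1 melanocyte marker tested was higher. Their part in the result was not tested.

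The contrast of EpiRE with BRE, added after the data had been seen, gave the largest count. In EpiRE 26 of 35 members were higher and 0 lower, against 22.9% of 11002 genes called higher, with a median of 0.154 (11.3%) beside 0.0483 over all genes. All 10 large subunit factors and all 4 box C/D genes passed. By time, the median of BRE minus EpiRE was -0.0147 at CT16, with 21 of 35 members lower in BRE. At the other times it was -0.111 to -0.253, with 29 to 34 members lower. These times were not compared by a test either, nor were the same values computed over all genes. Rrp1b ranged from 2.2 to 2.97 (median 2.72) in EpiRE and from 1.89 to 2.68 (median 2.39) in BRE, with 23 of 24 EpiRE libraries above the BRE median. The difference was 0.27 ± 0.05 (20.6%, adjusted p = 0.000139). Nop56 was higher by 0.27 ± 0.05 (adjusted p = 3.3e-05), Nolc1 by 0.26 ± 0.06 (adjusted p = 0.000251), Rrp9 by 0.24 ± 0.05 (adjusted p = 0.000219) and Noc4l by 0.23 ± 0.04 (adjusted p = 1.76e-06). Without the library that stood apart 27 members were higher. Median-ratio scaling left 19, all higher, and turned the split of all genes from 2520 higher and 1217 lower to 1545 and 1727. Suprabasal markers were lower in EpiRE than in BRE in 6 of 7 cases (median -0.348), and granular and cornified markers in 4 of 7 with 2 higher (median -0.457). Basal markers were higher in 2 of 8 cases, S phase genes in 3 of 13 with 1 lower, and T cell markers in 3 of 5 with 1 lower (median 0.34). Of 15 G2/M genes 0 were called in either direction (median 0.0249). The 1 melanocyte marker tested was higher. The part of these markers in the result was not tested here either.

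These 3 contrasts share the BRE libraries and are not independent. Side by side, Fbl differed by -0.24 in BRE against WT, by 0.15 in RERE against BRE and by 0.19 in EpiRE against BRE, and Npm1 by 0.02, -0.05 and -0.02.

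Among the 3 genotypes with Arntl in the epidermis (WT, RERE and EpiRE) no member passed. Of these, EpiRE had 0 of 11061 genes called rhythmic by the test described below. RERE against WT gave 0 of 35 (2.14% of 11051 genes called), with a median of -0.00159, 18 of 35 point estimates below 0 and 1 member at an unadjusted p under 0.05. Its smallest p was of Fbl, at 4.82 to 5.59 in RERE, a difference of -0.09 ± 0.04 (adjusted p = 0.347), and next Nop58 at -0.07 ± 0.04 (adjusted p = 0.468). EpiRE against WT gave 0 of 35 (2.23% of 11059 genes called), with 4 at an unadjusted p under 0.05, 30 of 35 point estimates above 0 and a median of 0.0578 beside 0.00316 over all genes. Rrp1b differed by 0.13 ± 0.05 (adjusted p = 0.298) and Rrp12, a small subunit export factor, by 0.14 ± 0.06 (adjusted p = 0.321), from levels of 2.56 to 3.45 in WT and 2.89 to 3.5 in EpiRE. RERE against EpiRE gave 0 of 35 (0.00906% of 11042 genes called), with 5 at an unadjusted p under 0.05, 33 of 35 point estimates below 0 and a median of -0.0511 beside -0.00922 over all genes. Nop58, at 5.33 to 5.94 in RERE and 5.32 to 6.42 in EpiRE, differed by -0.12 ± 0.05, and Rrp1b by -0.10 ± 0.05 (adjusted p = 0.837 each). The 95% intervals of the members reached from -0.18 to 0.21 for RERE against WT and from -0.13 to 0.27 for EpiRE against WT. limma-voom on recovered reads called 0 members in each of the 3 contrasts as well.

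The second question was whether these genes follow the day. In WT 5 of 35 were called rhythmic, against 33.1% of 11087 genes, and the members' median amplitude (the height of a fitted 24 h cosine above its mean) was 0.0962 beside 0.119 over all genes. The 5 were Heatr1, Wdr75 and Nat10 of small subunit assembly, Polr1a and Ddx21, and their fitted peaks fell between CT 15.74 and CT 18.91, in the subjective night. None of the box C/D, box H/ACA or large subunit genes passed. Cell cycle markers were rhythmic in the same libraries, 13 of 14 S phase and 15 of 15 G2/M genes, and their part in the members' rhythms was not tested.

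Heatr1 (ENSMUSG00000050244; chromosome 13, 12395027 to 12440289), a processome component also needed for Pol I transcription, had the largest amplitude. Its WT libraries read 3.02, 2.68, 2.81 and 2.62 at CT4 and 3.45, 3.34, 3.28 and 3.37 at CT16. The libraries of these 2 times did not overlap. They were the times of its lowest and highest mean, so the lack of overlap is not a test. Its means were 3.25, 2.78, 3.04, 3.07, 3.36 and 3.21 from CT0 to CT20, with an amplitude of 0.22 ± 0.05 peaking at CT 17.83 (adjusted p = 0.0091). Wdr75 (ENSMUSG00000025995; chromosome 1, 45795166 to 45823619), a UTP-A subunit, read 3.38, 3.24, 3.27 and 3.21 at CT4 and 3.84, 3.64, 3.62 and 3.61 at CT16. The amplitude was 0.17 ± 0.04 with the peak at CT 17.72 (adjusted p = 0.0189). Both genes thus had their lowest mean at CT4 and their highest at CT16.

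Ddx21 (ENSMUSG00000020075; chromosome 10, 62580251 to 62602281) read 4.63, 4.59, 4.33 and 4.39 at CT4, 4.81, 4.77, 4.94 and 4.88 at CT16 and 4.83, 4.79, 4.89 and 4.92 at CT0. It stayed high through CT0, and its amplitude was 0.16 ± 0.04 with a peak at CT 18.91 (adjusted p = 0.0211). Polr1a (ENSMUSG00000049553; chromosome 6, 71909053 to 71984935) read 2.43, 2.28, 2.09 and 2.00 at CT4 and 2.58, 2.67, 2.70 and 2.64 at CT16. The amplitude was 0.18 ± 0.05 with a peak at CT 17.12 (adjusted p = 0.0245). Nat10 (ENSMUSG00000027185; chromosome 2, 103721256 to 103761270) read 3.33, 3.11, 3.20 and 3.15 at CT4 and 3.66, 3.67, 3.39 and 3.36 at CT12. Its peak at CT 15.74 was the earliest of the 5, with an amplitude of 0.15 ± 0.05 (adjusted p = 0.0332).

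The fitted swing from trough to peak was 1.24-fold to 1.35-fold in these 5 genes. The calls depended on which libraries and model were used. Without replicate 2 of each time 0 members were called (adjusted p of 0.0861 to 0.165 for the 5) and without replicate 1 only Heatr1 was (adjusted p = 0.0493). Ddx21 and Polr1a were also lost without replicate 4, and Wdr75 with time as a factor. Nat10 passed in 5 of 11 alternatives, and was lost with no filter, with time as a factor and without each of the 4 replicates. In the authors' deposited table of JTK_CYCLE, 1 member had a q under 0.05 in WT, Heatr1 (q = 0.0305), against 9.72% of 22497 genes. In the authors' deposited table of BIOCYCLE 0 of 35 did, against 4.22%, with the smallest q for Wdr75 (q = 0.0767).

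In RERE 2 of 35 were called, against 19.4% of 11032 genes. Polr1b (ENSMUSG00000027395; chromosome 2, 129100995 to 129126594) read 3.17, 2.96, 3.01 and 3.23 at CT0 and 3.56, 3.65, 3.41 and 3.29 at CT16, with no overlap. The amplitude was 0.17 ± 0.04 with a peak at CT 16.54 (adjusted p = 0.0183). Rrp1b (ENSMUSG00000058392; chromosome 17, 32036100 to 32062865) read 2.12, 1.86, 2.47 and 2.35 at CT0 and 2.76, 2.93, 2.77 and 2.57 at CT16, again apart, with an amplitude of 0.21 ± 0.06 at CT 14.19 (adjusted p = 0.0308). Both calls were lost without replicate 2, 3 or 4 (adjusted p of 0.0555 to 0.181). The authors' deposited tables held 0 members with a q under 0.05 in RERE, against 5.47% of genes by JTK_CYCLE and 0.947% by BIOCYCLE. The 5 genes called in WT had RERE amplitudes of 0.08 to 0.12 and peaks at CT 14.7 to 17.41, none passing. In WT, by the same test, Polr1b had an amplitude of 0.13 at CT 14.93 (adjusted p = 0.102). Rrp1b had 0.16 at CT 15.88 in WT (adjusted p = 0.073).

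EpiRE had 0 of 35 called, against 0.0% of 11061 genes, and 1 member at an unadjusted p under 0.05. Its smallest p values were of Rrp1b (amplitude 0.14 ± 0.05, adjusted p = 0.36), Nat10 (0.10 ± 0.04, adjusted p = 0.465) and Ltv1, a small subunit export and maturation factor (0.10 ± 0.05, adjusted p = 0.537). The EpiRE means of Rrp1b ran from 2.46 at CT0 to 2.85 at CT20. BRE had 0 of 35 called, against 1.14% of 10970 genes, and 4 at an unadjusted p under 0.05. The smallest were Nop16 (0.10 ± 0.04, adjusted p = 0.208), Bop1 (0.09 ± 0.03, adjusted p = 0.215) and Nop56 (0.12 ± 0.04, adjusted p = 0.22). limma-voom called 0 members in both genotypes.

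**Figure D3:**
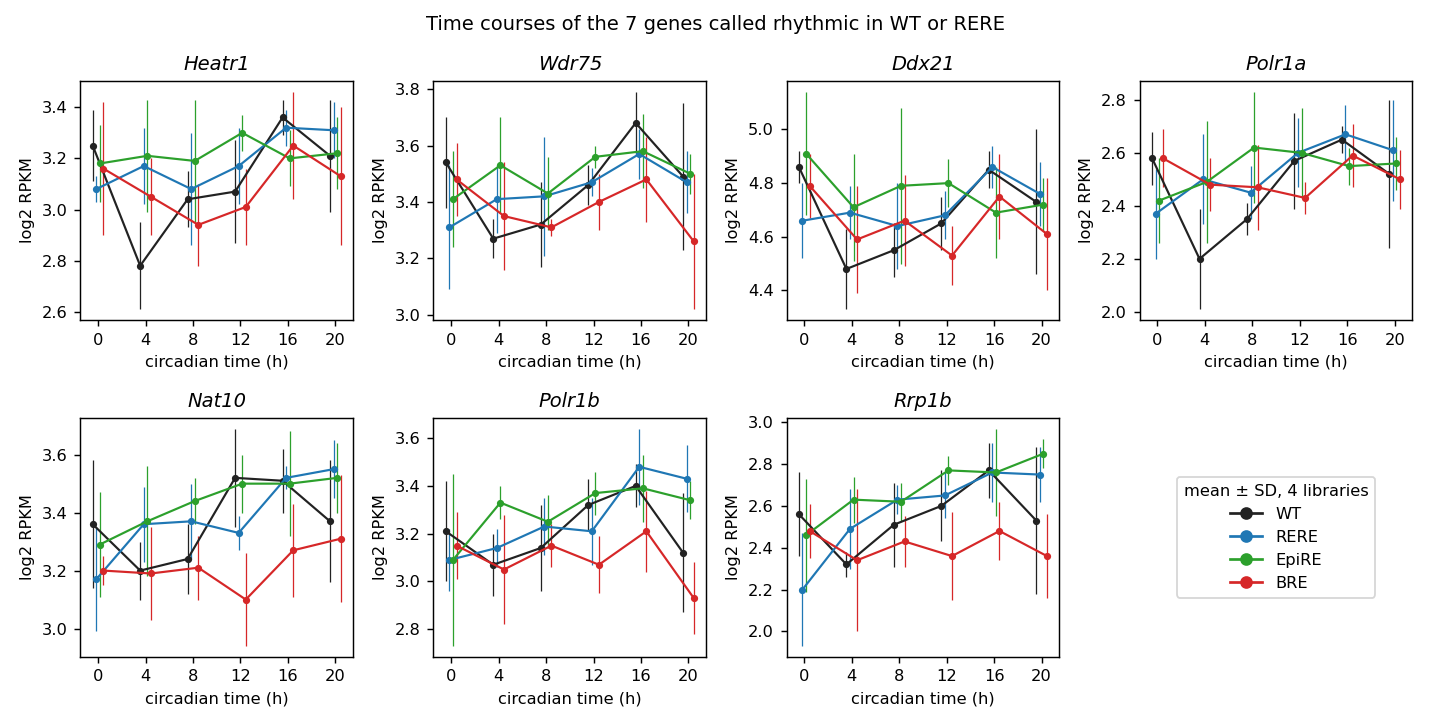
Mean ± SD of 4 libraries (log2 RPKM, vertical axis) by circadian time in hours (horizontal axis) for the 7 genes called in WT or RERE, with 1 line per genotype. Heatr1, Wdr75, Ddx21 and Polr1a have their lowest WT means at CT4 (2.78, 3.27, 4.48 and 2.2), and the BRE line of Nat10 lies lowest from CT4 to CT20.

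**Figure D4:**
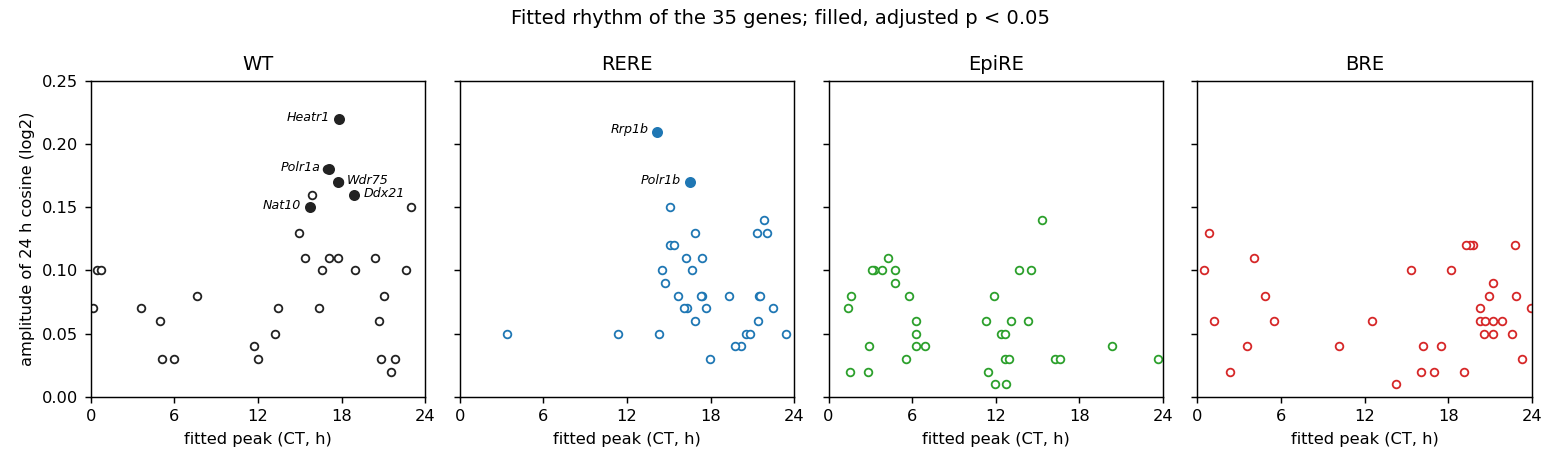
Fitted amplitude (vertical axis, log2) against fitted peak time (horizontal axis, circadian hours) of the 35 genes in each genotype, filled for adjusted p under 0.05. The 5 filled points of WT lie between CT 15.74 and CT 18.91, the 2 of RERE between CT 14.19 and CT 16.54, and EpiRE and BRE have none.

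No member differed in rhythm between genotypes by the interaction test. RERE against WT called 0 of 35 (0.0% of 11051 genes), with 0 members at an unadjusted p under 0.05 and the smallest p for Wdr75 (adjusted p = 0.794). EpiRE against WT called 0 of 35 (1.57% of 11059 genes called), with the smallest p for Heatr1, whose time courses differed by a vector of size 0.21 (adjusted p = 0.187). Its EpiRE means ran from 3.18 to 3.30, without the low value at CT4 seen in WT. BRE against WT called 0 of 35 (5.69% of 11016 genes), RERE against EpiRE 0 of 35 (1.05% of 11042 genes) and RERE against BRE 0 of 35 (4.19% of 10991 genes). Nop56 had the smallest p in each of these 3 (adjusted p = 0.226, 0.346 and 0.143). So a member called in WT and not in BRE is not shown to differ between them. limma-voom also called 0 members in the 5 contrasts.

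**Figure D5:**
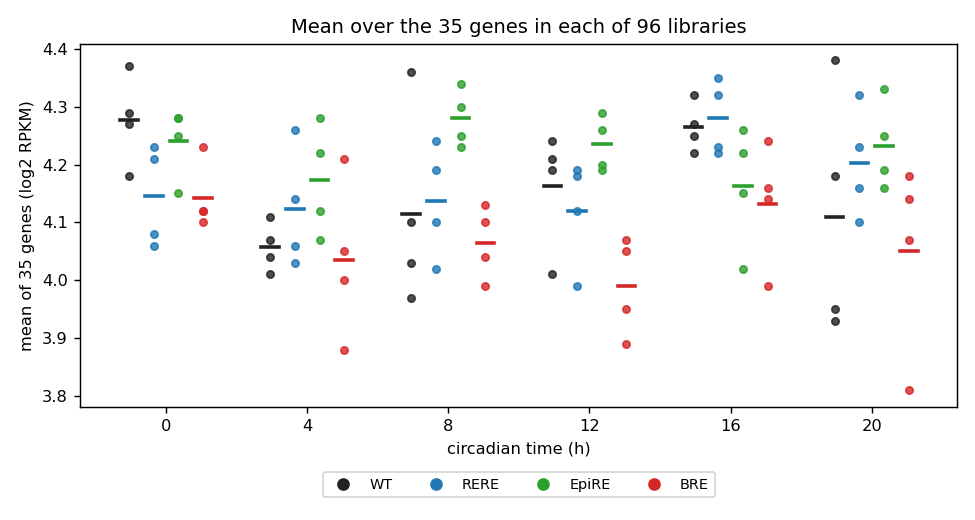
Mean level of the 35 genes in each of the 96 libraries (vertical axis, log2 RPKM) by circadian time in hours, coloured by genotype, with a bar at the mean of 4 libraries. WT libraries at CT20 reach from 3.93 to 4.38, and the lowest library of all is of BRE at CT20 (3.81).

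The mean level of the 35 genes was 4.16 (SD 0.14) in WT, 4.17 (SD 0.10) in RERE, 4.22 (SD 0.08) in EpiRE and 4.07 (SD 0.11) in BRE over 24 libraries each. At CT20 in WT the mean was 4.38 and 4.18 in replicates 1 and 2 and 3.93 and 3.95 in replicates 3 and 4. In the first of these libraries 35 of 35 members were above their group mean, and in the last 2 34 of 35 were below it. At CT8 the same was seen in replicate 4, at 4.36 with 33 of 35 members above the group mean, against 3.97 to 4.10 in the others. At CT12 replicate 4, at 4.01, had 34 of 35 members below it. Other splits were near even, such as 19 below and 16 above at CT16 in replicate 2 and 17 below and 18 above in replicate 3. The same counts over all genes were not computed. The WT group means from CT0 to CT20 were 4.28, 4.06, 4.11, 4.16, 4.26 and 4.11, with SDs of 0.04 to 0.22 over 4 libraries. Libraries at CT4 (4.01 to 4.11) and CT16 (4.22 to 4.32) did not overlap, while those at CT20 (3.93 to 4.38) covered both ranges.

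The other genes of the pathway were described from 6 lists, of which 146 genes could be tested. In BRE against WT 62 of the 146 were lower and 0 higher, against 24.4% of all genes called lower, with a median of -0.0956 beside -0.0455 over all genes. By list the lower calls were 24 of 39 small subunit processome genes, 18 of 48 large subunit assembly genes, 8 of 22 rRNA processing nucleases, 5 of 10 snoRNP assembly genes, 4 of 9 late small subunit genes and 3 of 18 genes of RNA polymerase I and its factors. Ubtf, the factor that opens rDNA chromatin for Pol I, fell by 0.14 ± 0.03 (adjusted p = 2.11e-05), and the shared or specific subunits Znrd1 and Polr2e fell by 0.25 ± 0.06 and 0.15 ± 0.04. Tcof1, treacle, a partner of Nolc1 and of Pol I, fell by 0.26 ± 0.04 (adjusted p = 5.34e-06), and the snoRNP assembly factors Naf1 and Znhit6 fell by 0.21 ± 0.04 and 0.27 ± 0.06. In the processome Nol7, Ddx47 and Aatf fell by 0.18, 0.17 and 0.21. The late kinase Riok2 fell by 0.26 ± 0.04 (adjusted p = 6.13e-06), the rRNA dimethyltransferase Dimt1 fell by 0.14 and Pno1 fell by 0.11. Of the large subunit Ddx27, Urb1 and Gnl2 fell by 0.16, 0.17 and 0.10. The exosome genes Exosc2 and Exosc5 fell by 0.29 ± 0.06 and 0.24 ± 0.06, and Exosc8 fell by 0.17 ± 0.05.

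In the remaining level contrasts the lists gave 72 of 146 higher in EpiRE than in BRE (22.9% of all genes), 45 of 146 higher in RERE than in BRE (17.4% of all genes), 0 lower in both, and 0 in either direction in RERE against WT, EpiRE against WT and RERE against EpiRE. In WT 24 of 146 were rhythmic, against 33.1% of all genes, and in RERE 17, against 19.4%, while EpiRE and BRE had 0, against 0.0% and 1.14%. The peaks in WT were spread. Mdn1, the AAA ATPase of pre-60S particles, peaked at CT 16.62 (amplitude 0.30 ± 0.05, adjusted p = 0.000556) and Utp20 at CT 16.97 (0.22 ± 0.04), near the members' peaks, and Diexf peaked at CT 13.2. The Pol I factors Taf1a and Taf1c peaked at CT 13.98 and CT 14.38, and Rrn3, which recruits the polymerase, at CT 20.39. Riok2 peaked at CT 12.5. Opposite in time were Imp3 (CT 4.63), Eif6, the anti-association factor of the large subunit (CT 3.37), and Nop53 (CT 6.43). The nuclease genes Exosc9, Rpp30 and Dis3 peaked at CT 23.49, CT 21.98 and CT 14.1.

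Of 16 tested genes of the MYC network and growth signalling, 1 was lower and 2 were higher in BRE than in WT. Over all genes 24.4% were called lower, and 1382 of 11016 were called higher. Deptor, an inhibitor of mTOR, fell by 0.82 ± 0.08 (adjusted p = 2.99e-10), and Mycl and Mxi1 were higher by 0.12 ± 0.04 and 0.11 ± 0.04. Myc itself was at -0.26 ± 0.11 (adjusted p = 0.0561) and Mtor at 0.06 ± 0.03 (adjusted p = 0.156). In WT 7 of 16 were rhythmic, against 33.1% of all genes. Mxd3, a MAX partner and repressor, had an amplitude of 0.96 ± 0.13 (CT 22.23). Mnt was at 0.20 ± 0.03 (CT 10.32) and Deptor at 0.39 ± 0.07 (CT 13.31). Myc was not called (amplitude 0.19 ± 0.11, adjusted p = 0.374).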

How the data were processed

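The data were 96 polyadenylated RNA libraries in 24 groups of 4, and group and time came from the labels and the column names. Tools named in the submitters' processing notes include featureCounts 1.6.0 and edgeR (no version), the aligner HISAT2 2.2.1, SAMtools 1.3.1 and Trimmomatic 0.36, with the build mm10. The labels describe adaptors with molecular identifiers, and no source at hand says whether they removed duplicates. Per the file headers, the deposited values used are log2 RPKM per gene and library made by the authors. The authors' deposited p-values, q-values, lags in hours and amplitudes on the log2 scale are of BIOCYCLE and JTK_CYCLE. A further 96 columns of values matched no label and were not used.

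For 22469 genes (99.88%) the log2 values could be turned back into whole reads (100.0% of values, tolerance 0.1 read), at a prior of 0.25 reads. They served depth and limma-voom alone. Precision comes from the spread between mice, which the labels call biological replicates.

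Tests used limma 3.58.1 (R 4.3.3), moderated with a mean trend, after genes averaging under 0 log2 RPKM (1 RPKM) were dropped. Rhythm was the F test of a cosine and sine of 24 h within a genotype, differential rhythm the genotype by cosine and sine term in 48 libraries, and level the genotype term beside time as a factor. Level tests were two-sided and F tests have no side. Adjusted p-values (Benjamini-Hochberg over all genes tested) under 0.05 were called. The tests were also run on simulated data in which genes varied independently of one another. Shifts of many genes together within a library were not simulated, so that run does not cover them. Alternatives were no filter, median-ratio scaling, a prior of 2 reads, limma-voom, a replicate block, time as a factor (cosine for level), a spread shared over 96 libraries, and each replicate left out. Members were named as called with the smallest p or largest difference (else the smallest p), the 3 highest and 3 lowest in level, and per pathway list up to 3 genes by smallest p. The members, lists and rule were chosen with earlier results of these data known.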

Additional observations from a re-analysis of the deposited data

Results flagged for a closer look

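The mean over the 35 genes was examined in 24 groups of 4 libraries, and each of the 7 genes called rhythmic in WT or RERE in the 12 groups of those genotypes, 108 groups in all. In 3 groups 1 library lay far from the other 3, by a gap above the 95% critical value of Dixon's test, and chance alone gives about 1 in 20 such groups. Heatr1 in WT at CT8 was 3.20 in replicate 4 and 2.97 to 3.00 in the others. Wdr75 in WT at CT16 was 3.84 in replicate 1 and 3.61 to 3.64 in the others. Wdr75 in RERE at CT12 was 3.55 in replicate 4 and 3.43 to 3.45 in the others.

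Of the pathway genes outside the 35, 2 of 146 differed in rhythm between RERE and BRE by the interaction test of limma, against 4.19% of the 10991 genes tested. Riok2, a kinase of late small subunit maturation, had an amplitude of 0.25 ± 0.04 (CT 13.53) in RERE and 0.02 ± 0.04 in BRE, with an adjusted p of 0.00785 for the difference. Wdr36, a processome protein, had 0.16 ± 0.04 (CT 12.39) in RERE and 0.08 ± 0.04 (CT 20.7) in BRE, with an adjusted p of 0.0339.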

How the results depend on the processing

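With median-ratio scaling the count of members called in BRE against WT was 10 in place of 18, and in RERE against BRE 11 in place of 18. With each replicate left out in turn, which removes 6 libraries per genotype, the count called rhythmic ranged from 0 to 6 in WT (5 with all), from 0 to 3 in RERE (2 with all) and from 0 to 2 in BRE (0 with all). The counts called in level ranged from 9 to 12 for BRE against WT (18 with all), from 8 to 13 for RERE against BRE (18 with all) and from 19 to 24 for EpiRE against BRE (26 with all), and the cause was not tested. Fewer libraries enter these fits. Over all genes the number rhythmic in WT was 2019 to 2701 in these fits and 2249 with time as a factor, in place of 3675. With no filter on low values the genes called in level rose to 8585 for BRE against WT, since genes without reads stand 0.046 to 0.058 apart between the tables, while the members called stayed at 18. With the replicate block the counts were 6 in WT rhythm, 2 in RERE rhythm, 18 in BRE against WT, 18 in RERE against BRE and 26 in EpiRE against BRE, and 0 elsewhere. Libraries of the same number and time correlated at a mean r of 0.0197 in their deviations, and those of different numbers at the same time at -0.00639. The share of such pairs with r over 0.1 was 30.6% and 21.5%. What libraries of the same number share was not tested. Among repeated tests of single named members, 416 kept their side of the threshold and, for level, their direction. A further 26 no longer passed, 1 newly passed and 0 reversed. Rhythm tests have no direction, so only level tests could reverse. Results not called at first count as kept where they stayed so. Most of the 26 lost calls were of rhythm in WT or RERE. Each member had at least 156 reads in every library, and whether depth limits the calls was not tested.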
